A study of Homo sapiens with 18 samples.

Results

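The transcripts described here are 38 genes of the NF-kappaB and linear ubiquitin pathway, chosen by symbol out of the 36601 gene IDs measured in 3 human cholangiocarcinoma cell lines. All 38 were found, and all 38 passed the filter on low counts in every comparison. Cholangiocarcinoma arises from the lining of the bile ducts. The 6 groups were HuCCT1 cells with shRNF213 and HuCCT1 cells with shControl, YSCCC cells with shRNF213 and YSCCC cells with shControl, and KKU-100 cells with shRNF213 and KKU-100 cells with shControl, with 3 biological replicates in each group and 18 libraries of messenger RNA in all. The shRNF213 cells stably express a hairpin, named shRNF213#2 in the labels, against RNF213, a large cytosolic ubiquitin ligase. The shControl cells carry a control hairpin and are otherwise labelled wild type. Both kinds of line were made with 3rd generation lentivirus, so every cell in the comparison had been transduced, and effects of the single RNF213 hairpin on other transcripts cannot be told apart from effects of losing RNF213. The labels place HuCCT1 in the bile duct, YSCCC in the liver and KKU-100 in the biliary tract. KKU-100 grew in Ham's F12 and both other lines in RPMI-1640, so line and medium cannot be told apart in any comparison with KKU-100. The comparisons ask which of the 38 transcripts differ with the RNF213 hairpin within each line, whether the hairpin effects differ between lines, and how the lines differ without the hairpin.

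NF-kappaB transcription factors are dimers of the subunits encoded by NFKB1, NFKB2, RELA, RELB and REL, held inactive by inhibitors such as the NFKBIA product until the IKK complex (CHUK, IKBKB and the adaptor IKBKG) marks the inhibitor for destruction. At tumour necrosis factor and interleukin receptors, the LUBAC ligase (RNF31, RBCK1 and SHARPIN) builds linear ubiquitin chains that IKBKG binds, and the deubiquitinases OTULIN and CYLD and the ubiquitin editor TNFAIP3 with its partner TNIP1 oppose the signal. The noncanonical arm runs through the kinase MAP3K14, whose protein is kept low by TRAF2, TRAF3 and the BIRC2 and BIRC3 ligases, and ends at RELB and NFKB2. Several of the inhibitors are themselves NF-kappaB target genes, as are the secreted or surface products IL6, IL32, LIF, CSF1 and ICAM1 and the mitochondrial enzyme SOD2. In biliary epithelium the pathway is known for its part in inflammatory cytokine production.

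RNF213 itself was lower with shRNF213 in 9 of 9 pairs of libraries that share a line and a replicate number. Its log2 difference in the edgeR quasi-likelihood test was -0.89 in HuCCT1 (SE 0.18, adjusted p = 0.136), -1.16 in YSCCC (SE 0.13, adjusted p = 0.000307) and, for KKU-100, -0.97 (SE 0.15, adjusted p = 0.0462). In HuCCT1, where it did not pass, RNF213 had 277, 431 and 286 CPM (counts scaled to a common library size) with shRNF213. The shControl libraries there held 394, 1277 and 433 CPM, so the groups overlapped. They did not overlap in YSCCC or KKU-100. The libraries held 21056732 to 25502097 counts, and mitochondrial transcripts took 1.61% to 2.76% of them. Of 7 markers of biliary epithelium, KRT7, KRT8, KRT18 and SOX9 were present in all 3 lines, while KRT19 and EPCAM averaged 0.0387 and 0.0223 CPM in KKU-100 and CDH1 averaged 1.86 CPM there. Leukocyte, endothelial and hepatocyte defining transcripts (PTPRC, CD3E, KDR and ALB) stayed below 2 CPM in every library. The markers of those types and of fibroblasts that exceeded 10 CPM in at least 1 library were CD68 (40.5 to 116 CPM over all lines), CDH5 (mean 57.8 CPM in YSCCC), LUM (mean 132 CPM in YSCCC), SERPINA1 (means of 236 CPM in HuCCT1 and 18.8 CPM in KKU-100), COL1A1 (means of 20.3 CPM in HuCCT1 and 9.91 CPM in YSCCC) and COL3A1 (means of 6.90 CPM in YSCCC and 15.9 CPM in KKU-100). Some replicates stood apart from the others of their line in both arms. In HuCCT1 replicate 2 the 24 interferon-stimulated genes summed to 10420 CPM with shRNF213 and 10310 CPM with shControl, against 990 to 1680 CPM in the other HuCCT1 libraries. In YSCCC replicate 3 the 20 stress response genes summed to 6239 CPM with shRNF213 and 7736 CPM with shControl, against 2835 to 3127 CPM in the other YSCCC libraries. In KKU-100 replicate 1 they summed to 9867 CPM with shRNF213 and 10190 CPM with shControl, against 7293 to 8740 CPM in the other KKU-100 libraries, a smaller distance. These differences were shared by both arms of a replicate. Each hairpin comparison below pairs the libraries by replicate number, and the comparisons of shControl levels between lines do not. No label says that a replicate number marks a shared culture or batch.

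The start regions of 5 members that passed a hairpin comparison below are shown: 4 whose window holds a match to the kappaB consensus, and OTULIN, whose window holds none. Other members that passed are not shown: TAB2 also had a window with a match, while the windows of MAP3K14 and TRAF2 had none. The printed windows therefore do not measure how matches go with the hairpin effects. The windows run from 250 bases before to 50 bases after the transcript start in RefSeq on GRCh38.p14, in the direction of the gene, with bases of a kappaB match in capitals. TNFAIP3 (chr6:137867009-137867308, plus strand) holds 2 matches, starting 67 and 55 bases before the start. IL32 (chr16:3065153-3065452, plus strand) holds overlapping matches on both strands at 99 and 98 bases, TNIP1 (chr5:151080985-151081284, minus strand) a match at 42 bases, and CYLD (chr16:50741836-50742135, plus strand) a match at 189 bases before the start. The OTULIN window is chr5:14664468-14664767 on the plus strand. CYLD, IL32 and TNIP1 have other annotated starts whose windows are not shown, and a window without a match is among them for each gene: 2 of 3 CYLD windows, 1 of 2 IL32 windows and 1 of 2 TNIP1 windows held one.
TNFAIP3: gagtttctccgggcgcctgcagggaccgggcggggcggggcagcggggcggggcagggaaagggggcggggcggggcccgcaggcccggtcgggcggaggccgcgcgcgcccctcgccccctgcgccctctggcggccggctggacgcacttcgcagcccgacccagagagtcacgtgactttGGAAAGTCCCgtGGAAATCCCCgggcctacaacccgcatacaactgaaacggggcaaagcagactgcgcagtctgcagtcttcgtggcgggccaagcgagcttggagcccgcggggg
IL32: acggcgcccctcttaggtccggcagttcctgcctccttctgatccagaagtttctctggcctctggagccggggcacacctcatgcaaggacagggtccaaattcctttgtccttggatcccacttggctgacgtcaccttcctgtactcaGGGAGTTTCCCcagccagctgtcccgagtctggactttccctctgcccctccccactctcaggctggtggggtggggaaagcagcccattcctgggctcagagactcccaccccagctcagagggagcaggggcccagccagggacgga
TNIP1: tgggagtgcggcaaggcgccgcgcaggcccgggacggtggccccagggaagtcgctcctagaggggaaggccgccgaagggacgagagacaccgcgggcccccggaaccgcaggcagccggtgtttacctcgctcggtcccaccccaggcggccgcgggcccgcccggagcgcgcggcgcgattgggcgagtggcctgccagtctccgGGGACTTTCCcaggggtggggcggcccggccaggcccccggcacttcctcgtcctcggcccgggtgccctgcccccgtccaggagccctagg
CYLD: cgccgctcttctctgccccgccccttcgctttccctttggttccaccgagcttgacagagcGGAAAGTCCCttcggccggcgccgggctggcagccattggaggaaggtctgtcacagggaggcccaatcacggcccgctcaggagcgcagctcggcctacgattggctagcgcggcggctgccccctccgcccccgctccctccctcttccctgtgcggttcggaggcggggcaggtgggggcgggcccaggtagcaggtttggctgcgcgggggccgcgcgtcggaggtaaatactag
OTULIN: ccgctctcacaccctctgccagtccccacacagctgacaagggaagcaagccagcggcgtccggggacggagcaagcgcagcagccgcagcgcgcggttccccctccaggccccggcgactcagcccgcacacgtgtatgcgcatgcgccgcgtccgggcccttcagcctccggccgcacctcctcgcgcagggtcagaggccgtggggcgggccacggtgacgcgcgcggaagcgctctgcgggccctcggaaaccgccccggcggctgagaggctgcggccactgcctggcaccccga

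Windows were found for 32 of the 38 members, 57 windows in all. The kappaB consensus, searched on both strands with overlapping matches allowed, occurred in 18 of these 57 windows (31.6%) and in at least 1 window of 15 of the 32 members (46.9%). Over the whole table it occurred in 2075 of 35116 windows (5.91%) and in 1937 of 27305 genes (7.09%). The members include genes known as NF-kappaB targets, so this share follows in part from how they were chosen. Besides the 4 printed, the members with a match were the subunit genes NFKB1, NFKB2 and REL, NFKBIA, NFKBIB, NFKBIZ and BCL3 of the inhibitor group, and TAB2, TRAF3, BIRC3 and IL6. A match is a run of letters and not a measured binding site.

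Of the 3 lines, YSCCC held the members that passed the within-line test: 1 rose and 9 fell with shRNF213 out of 38, where 8.25% of all 16932 genes tested passed in either direction, 3.69% higher and 4.56% lower. The members that fell were the restraining factors TNFAIP3, CYLD, OTULIN and TNIP1 of the linear ubiquitin group, the inhibitor NFKBIE, the noncanonical kinase MAP3K14, the adaptor TRAF2, the subunit RELB and the cytokine IL32. The member that rose was TAB2, the adaptor that brings the kinase MAP3K7 to ubiquitin chains. The median log2 difference of the 38 members was -0.03, against 0.01 over all genes tested, and 16 of the 38 values were above 0. The 10 called members were 26.3% of the list. In KKU-100, 0 of 38 passed (10 at an unadjusted p below 0.05), where 0.443% of 14915 genes did, and in HuCCT1, 0 of 38 passed (3 at an unadjusted p below 0.05), where 0.140% of 15747 genes did. RNF213 itself did not pass in HuCCT1 either (adjusted p = 0.136, edgeR). DESeq2 with the same pairing called the same 10 members in YSCCC, 3 in KKU-100 (BIRC3, CSF1 and TNFAIP3) and 1 in HuCCT1 (TRAF3). The shares of all genes above are those of edgeR with all pairs. They do not apply to DESeq2 or to fits with a pair left out. Without pairing by replicate number, 0 members passed in any line, with adjusted p of 0.883 to 0.9995 for the 10 YSCCC members, and 0 genes of any kind passed in YSCCC. With pairing but without replicate 1, 3 members passed in YSCCC (IL32, TNFAIP3 and CYLD), without replicate 2 these and MAP3K14 and OTULIN passed, 5 in all, and without replicate 3 there were 9, SOD2 among them, with NFKBIE and TRAF2 lost. IL32, TNFAIP3 and CYLD thus kept their calls without any 1 pair, and NFKBIE and TRAF2 lost theirs in each case, with adjusted p of 0.0681 to 0.203 and 0.0503 to 0.107.

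Other transcripts moved with the hairpin in all 3 YSCCC pairs. The stress response genes summed to 3115, 2835 and 6239 CPM with shRNF213 in YSCCC, against 3127, 2951 and 7736 CPM with shControl, nearly equal in replicate 1. The 7 biliary epithelial markers summed to 8303, 7129 and 4692 CPM with shRNF213, against 8516, 8039 and 4962 CPM with shControl. The 4 endothelial markers, nearly all of it CDH5, summed to 85.8, 96.8 and 28.6 CPM with shRNF213, against 76.6, 59.7 and 14.9 CPM with shControl, while KDR stayed at or below 0.245 CPM in every library of the study. The 6 leukocyte markers, mostly CD68, summed to 78.7, 69.8 and 76.6 CPM with shRNF213, against 57.1, 63.4 and 72.1 CPM with shControl. The 5 hepatocyte markers, nearly all of it SERPINA1, summed to 4.89, 10.6 and 13.5 CPM with shRNF213, against 2.67, 4.87 and 7.23 CPM with shControl. The part of these shifts in the values of the members was not tested. In bulk RNA, fewer cells of a kind and less RNA per cell cannot be told apart.

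**Figure D1:**
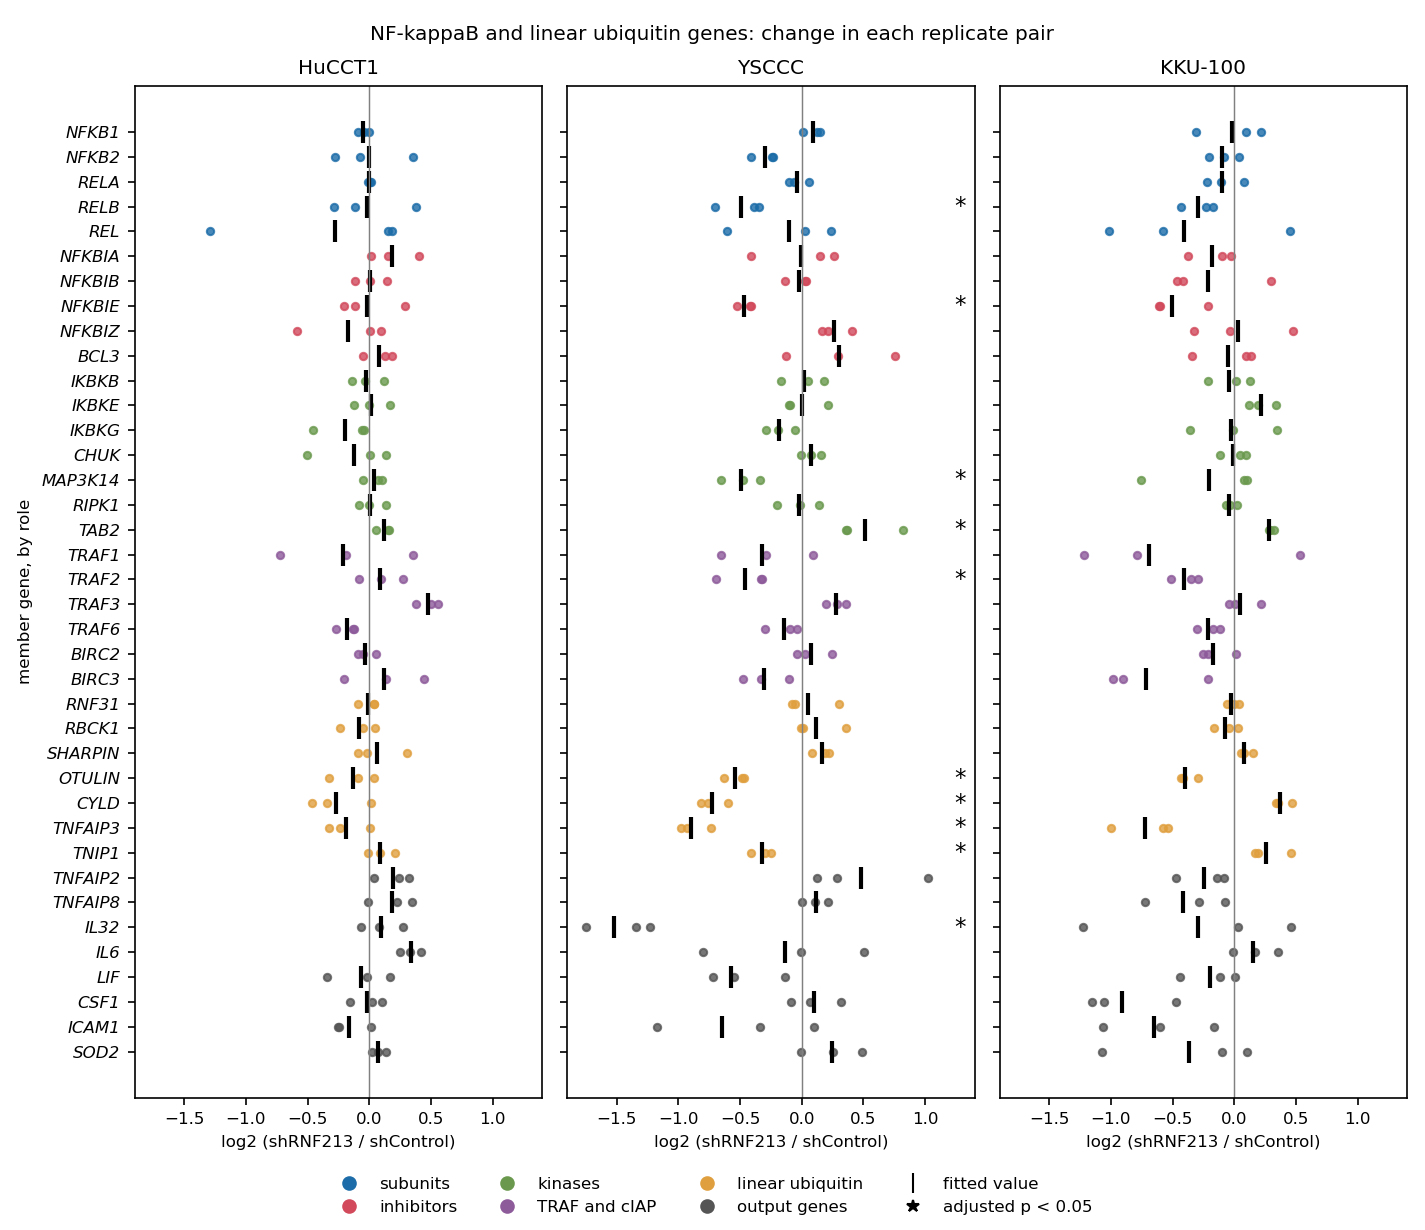
Log2 ratio of shRNF213 to shControl (horizontal axis, log2 of CPM with 0.5 CPM added) for the 38 member genes in each of the 3 replicate pairs of HuCCT1, YSCCC and KKU-100. Points are pairs coloured by role, black bars are the fitted values, and stars mark the 10 members with an adjusted p below 0.05, all of them in YSCCC.

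TNFAIP3, which encodes a ubiquitin-editing enzyme that shuts the signal down at the receptor complexes, had the second largest fall among the members in YSCCC. TNFAIP3 (ENSG00000118503, chr6:137867214-137883312, plus strand, GRCh38) had 15.5, 25.8 and 27.3 CPM in shRNF213 replicates 1, 2 and 3 of YSCCC, against 26.2, 49.7 and 54.2 CPM in shControl. Each shRNF213 library was below its pair, although the highest shRNF213 library reached above the lowest shControl library. The log2 difference was -0.90 (SE 0.11, adjusted p = 0.000521, edgeR). In KKU-100 it had 175, 209.5 and 78.4 CPM with shRNF213, against 350.0, 304.5 and 117 CPM with shControl, again lower in 3 of 3 pairs, with replicate 3 low in both arms (log2 -0.72, SE 0.14, adjusted p = 0.0759). In HuCCT1 it had 206, 158 and 112 CPM with shRNF213, against 258, 157 and 132 CPM with shControl, with groups that overlap (log2 -0.19, SE 0.09, adjusted p = 0.474).

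OTULIN, the deubiquitinase that cleaves linear chains only, was lower in 8 of 9 pairs, as were TNFAIP3, RELB, NFKBIE and IKBKG. OTULIN (ENSG00000154124, chr5:14664664-14699850, plus strand) had 40.6, 37.3 and 44.1 CPM with shRNF213 in YSCCC, against 56.4, 52.5 and 68.6 CPM with shControl, so that the groups did not overlap. The log2 difference there was -0.54 (SE 0.10, adjusted p = 0.00598, edgeR). In KKU-100 the groups did not overlap either, with 32.6, 34.1 and 26.9 CPM with shRNF213, against 44.0, 41.7 and 36.0 CPM with shControl, but the test did not pass (log2 -0.40, SE 0.12, adjusted p = 0.183). In HuCCT1 the values were 43.1, 36.5 and 54.5 CPM with shRNF213, against 41.9, 45.8 and 57.9 CPM with shControl, and the groups overlapped (log2 -0.13, SE 0.09, adjusted p = 0.638).

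CYLD, the deubiquitinase that removes linear and other regulatory chains and is a tumour suppressor in skin appendages, moved in opposite directions in YSCCC and KKU-100. CYLD (ENSG00000083799, chr16:50742050-50801935, plus strand) had 76.0, 55.9 and 72.6 CPM with shRNF213 in YSCCC, against 115, 98.9 and 123 CPM with shControl, with no overlap between the groups (log2 -0.73, SE 0.09, adjusted p = 0.000767, edgeR). In KKU-100 it had 103, 100.2 and 71.2 CPM with shRNF213, against 74.3, 79.0 and 55.7 CPM with shControl, higher in 3 of 3 pairs although the groups overlapped through replicate 3, which was low in both arms (log2 0.37, SE 0.10, adjusted p = 0.168). In HuCCT1 it was lower in 2 of 3 pairs and the groups overlapped through replicate 3. The values there were 35.8, 33.7 and 36.6 CPM with shRNF213, against 45.5, 46.6 and 36.3 CPM with shControl (log2 -0.27, SE 0.11, unadjusted p = 0.032, adjusted p = 0.412, edgeR).

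TNIP1, the ubiquitin-binding partner of TNFAIP3, followed the same split at a smaller size. TNIP1 (ENSG00000145901, chr5:151029945-151093577, minus strand) had 104, 97.0 and 129.5 CPM with shRNF213 in YSCCC, against 138, 119 and 154 CPM with shControl (log2 -0.32, SE 0.09, adjusted p = 0.0452, edgeR). In KKU-100 it had 341, 389 and 318 CPM with shRNF213, against 299, 346 and 231 CPM with shControl (log2 0.26, SE 0.12, adjusted p = 0.338). The groups overlapped in both lines, and what was shared by the replicates was the direction within pairs, lower in 3 of 3 in YSCCC and higher in 3 of 3 in KKU-100. In HuCCT1 its log2 difference was 0.09 (SE 0.08, adjusted p = 0.711).

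None of the 3 LUBAC genes passed in any line. RNF31, the catalytic subunit, differed by -0.01 in HuCCT1 (SE 0.09), 0.05 in YSCCC (SE 0.10) and -0.02 in KKU-100 (SE 0.11) on the log2 scale. RBCK1 differed by -0.09, 0.12 and -0.08 (SE 0.09, 0.10 and 0.12) and SHARPIN by 0.06, 0.16 and 0.08 (SE 0.10, 0.10 and 0.11) in the same order of lines. RBCK1 was high in HuCCT1 replicate 2, with 574 CPM with shRNF213 and 555 CPM with shControl, and in YSCCC replicate 3, with 332 CPM with shRNF213 and 259 CPM with shControl. In KKU-100 replicate 1 it had 587 CPM with shRNF213 and 573.5 CPM with shControl, the lowest of each arm in that line. Whether the interferon or stress state of these replicates bears on RBCK1 was not tested. RNF31 overlaps PSME2 and SHARPIN overlaps MAF1 on the opposite strand, and no source used here gives the strand setting of the counts, which leaves the reads in the shared bases uncertain.

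**Figure D2:**
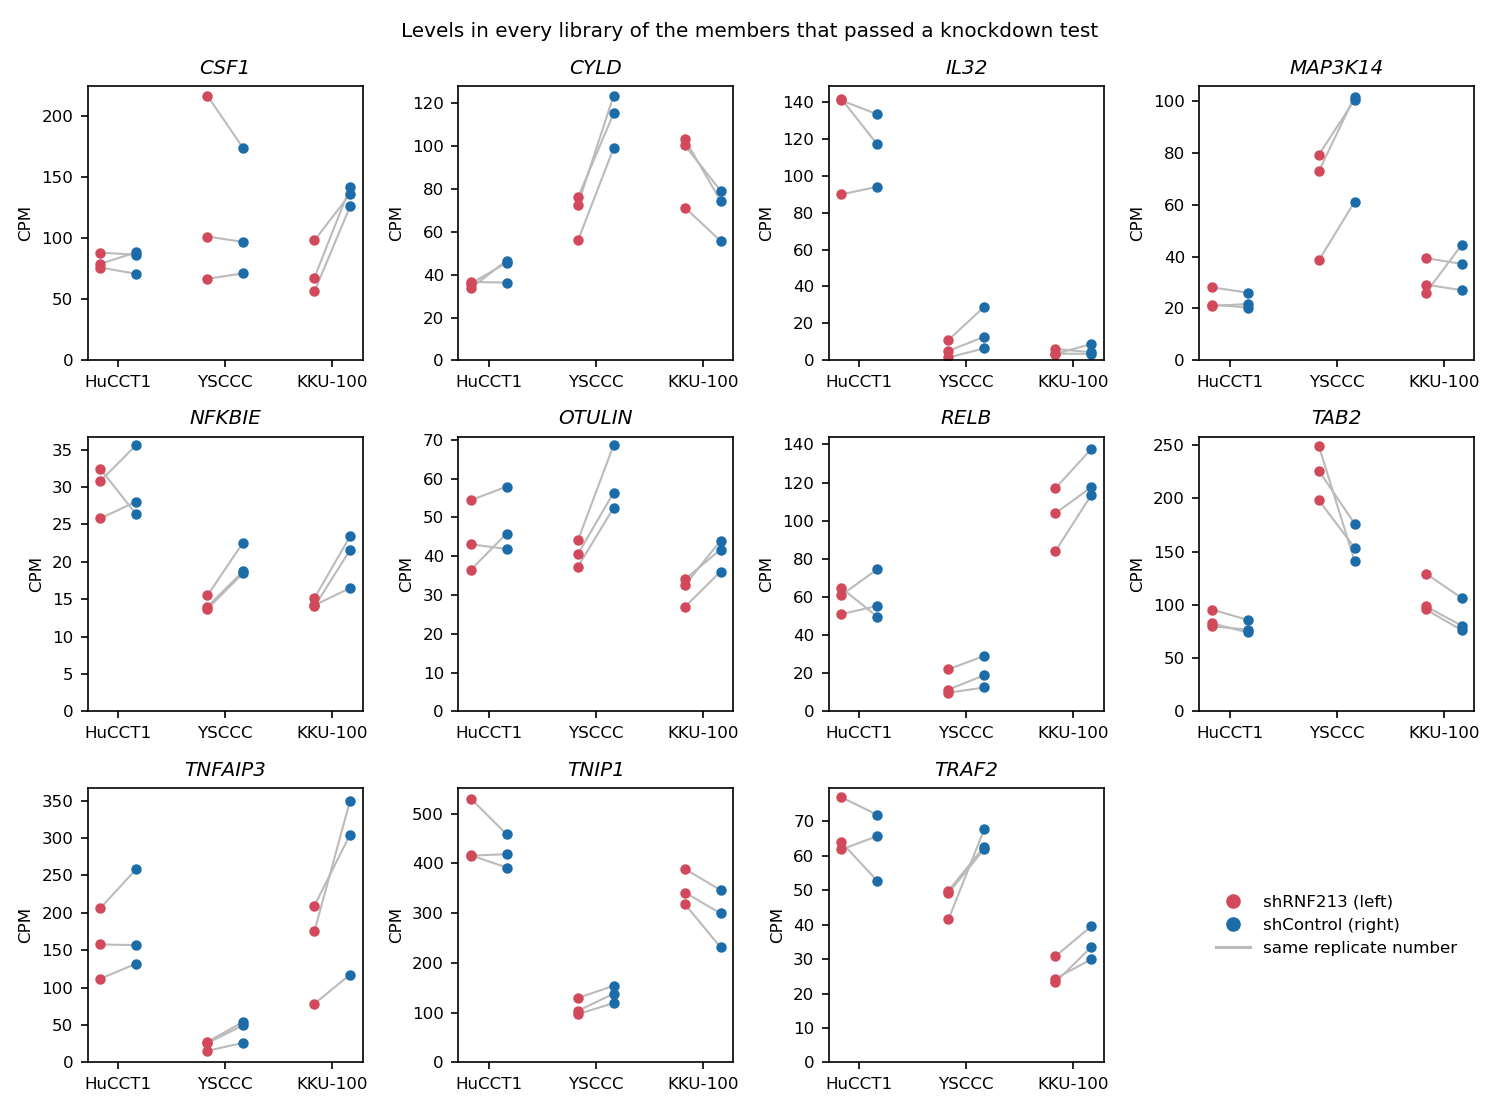
Level in CPM (vertical axes, each from 0) of the 11 members that passed at least 1 hairpin comparison, in every library of the 3 lines. Red points on the left of each pair are shRNF213 libraries, blue points on the right are shControl libraries, and grey lines join libraries with the same replicate number. The 3 grey lines of CYLD slope up towards shControl in YSCCC and down in KKU-100.

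Among the 5 subunit genes, RELB was the member called in YSCCC and the 3 canonical subunits NFKB1, RELA and REL were not. RELB, the transcriptional partner of processed NFKB2 in the noncanonical arm, had 9.79, 11.5 and 22.1 CPM with shRNF213 in YSCCC, against 12.6, 19.0 and 29.1 CPM with shControl (log2 -0.50, SE 0.13, adjusted p = 0.0320, edgeR). It was lower in each pair, and the groups overlapped because replicate 3 was the highest in both arms. RELB differed by -0.30 in KKU-100 (SE 0.11, adjusted p = 0.246), where it was also lower in 3 of 3 pairs, and by -0.02 in HuCCT1 (SE 0.12, adjusted p = 0.969). The other 4 subunit genes ranged from -0.30 (NFKB2) to 0.09 (NFKB1) on the log2 scale in YSCCC, from -0.41 (REL) to -0.02 (NFKB1) in KKU-100 and from -0.28 (REL) to -0.003 (RELA) in HuCCT1, with no adjusted p below 0.0759.

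Of the 5 genes grouped here as inhibitors, NFKBIE was the one called, again in YSCCC. The group is a label of gene family, and it does not state that NFKBIZ and BCL3 act as inhibitors. NFKBIE, which encodes a cytosolic inhibitor that binds REL and RELA dimers, had 13.7, 14.0 and 15.5 CPM with shRNF213 in YSCCC, against 18.5, 18.7 and 22.6 CPM with shControl (log2 -0.47, SE 0.12, adjusted p = 0.0330, edgeR). The groups did not overlap in YSCCC, nor in KKU-100, where the values were 15.2, 14.0 and 14.2 CPM with shRNF213, against 23.4, 21.6 and 16.5 CPM with shControl (log2 -0.51, SE 0.16, adjusted p = 0.200). NFKBIE differed by -0.02 in HuCCT1 (SE 0.12, adjusted p = 0.963). NFKBIA, the classical feedback inhibitor, was far from the threshold in each line, at -0.003 in YSCCC (SE 0.12, adjusted p = 0.992), -0.18 in KKU-100 (SE 0.12, adjusted p = 0.507) and 0.18 in HuCCT1 (SE 0.09, adjusted p = 0.499). NFKBIB, NFKBIZ and BCL3 ranged from -0.21 to 0.31 over the 3 lines and did not pass.

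Of the 7 kinase and adaptor genes, MAP3K14 fell and TAB2 rose in YSCCC. MAP3K14, the kinase that starts the noncanonical arm, had 79.3, 73.0 and 38.6 CPM with shRNF213 in YSCCC, against 100.3, 102 and 61.1 CPM with shControl (log2 -0.49, SE 0.10, adjusted p = 0.00969, edgeR). Replicate 3 was the lowest in both arms, and each shRNF213 library was below its pair. TAB2 had 198, 249 and 226 CPM with shRNF213 in YSCCC, against 154, 141 and 176 CPM with shControl, with no overlap (log2 0.51, SE 0.11, adjusted p = 0.0109, edgeR). MAP3K14 differed by 0.04 in HuCCT1 and -0.21 in KKU-100, neither past the threshold, and its antisense neighbour MAP3K14-AS1, which overlaps it over 6706 bases, held 29.7% as many counts. TAB2 had 79.9, 82.8 and 95.7 CPM with shRNF213 in HuCCT1, against 76.9, 74.1 and 86.0 CPM with shControl, and 129, 95.8 and 98.6 CPM with shRNF213 in KKU-100, against 107, 76.3 and 80.6 CPM with shControl. It was thus higher in 9 of 9 pairs, a pattern that 1 of the 38 members and 1.36% of 14988 genes shared. The other 5 genes, IKBKB, IKBKE, IKBKG, CHUK and RIPK1, ranged from -0.20 to 0.22 over the 3 lines and none passed. IKBKG has a near-identical pseudogene copy, so its counts are uncertain.

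TRAF2 was the member of the 6 TRAF and cIAP genes called in YSCCC. TRAF2, the adaptor that holds the BIRC2 and BIRC3 ligases at the receptor, had 49.2, 49.9 and 41.5 CPM with shRNF213 in YSCCC, against 62.0, 62.6 and 67.6 CPM with shControl, with no overlap (log2 -0.46, SE 0.11, adjusted p = 0.0211, edgeR). In KKU-100 it had 23.3, 24.3 and 30.8 CPM with shRNF213, against 33.5, 29.9 and 39.5 CPM with shControl, lower in 3 of 3 pairs (log2 -0.41, SE 0.13, adjusted p = 0.198), and in HuCCT1 it differed by 0.09 (SE 0.09, adjusted p = 0.733). TRAF3, which marks the MAP3K14 protein for destruction, had the lowest adjusted p of any member in HuCCT1. Its HuCCT1 levels were 138, 144 and 145 CPM with shRNF213, against 93.9, 101.5 and 111.5 CPM with shControl, groups that did not overlap (log2 0.47, SE 0.08, adjusted p = 0.0748, edgeR). TRAF3 differed by 0.28 in YSCCC (SE 0.10, adjusted p = 0.108) and by 0.04 in KKU-100 (SE 0.12, adjusted p = 0.886). TRAF6, the ligase of interleukin and Toll-like receptor signalling, was lower in 9 of 9 pairs, a pattern that 1 of the 38 members and 1.36% of all genes shared, at -0.18 in HuCCT1, -0.15 in YSCCC and -0.22 in KKU-100, none past the threshold. BIRC3 had 236, 228 and 154 CPM with shRNF213 in KKU-100, against 440, 264 and 304 CPM with shControl, with no overlap (log2 -0.72, SE 0.17, adjusted p = 0.131).

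Of the 8 output genes, IL32 fell in YSCCC and was the member with the largest change in any line. IL32 (ENSG00000008517, chr16:3065297-3082192, plus strand), a cytokine that is itself induced by NF-kappaB, had 5.17, 1.59 and 11.1 CPM with shRNF213 in YSCCC, against 12.8, 6.51 and 28.9 CPM with shControl (log2 -1.52, SE 0.16, adjusted p = 0.000267, edgeR). The spread between replicates was wide and the groups overlapped, but each shRNF213 library held less than the shControl library of its pair. In KKU-100 its low levels did not move one way, with 6.24, 3.51 and 3.66 CPM with shRNF213, against 4.41, 8.85 and 3.57 CPM with shControl (log2 -0.29, SE 0.34, adjusted p = 0.715). HuCCT1 expressed far more of it, 141, 141.5 and 89.8 CPM with shRNF213, against 133, 117 and 94.0 CPM with shControl, with no difference past the threshold (log2 0.09, SE 0.09, adjusted p = 0.723).

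CSF1, the growth factor of macrophages, had the lowest adjusted p of any member in KKU-100. It had 56.5, 98.3 and 67.9 CPM with shRNF213 in KKU-100, against 126, 136 and 142 CPM with shControl, with no overlap between the groups (log2 -0.91, SE 0.16, adjusted p = 0.0634, edgeR). In YSCCC it had 66.9, 101.5 and 217 CPM with shRNF213, against 71.3, 97.1 and 174 CPM with shControl, with replicate 3 high in both arms (log2 0.10, SE 0.10, adjusted p = 0.614). In HuCCT1 its log2 difference was -0.02 (SE 0.08, adjusted p = 0.953). ICAM1, the leukocyte adhesion molecule, was low in KKU-100 and did not overlap there either, with 9.82, 8.01 and 12.5 CPM with shRNF213, against 15.1, 17.3 and 14.0 CPM with shControl (log2 -0.65, SE 0.20, adjusted p = 0.202). IL6, LIF, TNFAIP2, TNFAIP8 and SOD2 ranged from -0.58 (LIF in YSCCC) to 0.48 (TNFAIP2 in YSCCC), and none of them passed in a line.

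In KKU-100, 8 of the 38 members had a positive log2 difference, and the median was -0.18, against 0.00 over all genes tested. The shRNF213 library was the lower one in 3 of 3 pairs for 12 members in KKU-100, where 18.7% of genes did so, and for 14 members in YSCCC, where 21.6% did so. It was the higher one in 3 of 3 pairs for 5 members in KKU-100 (21.2% of genes) and 7 in YSCCC (24.1%). In HuCCT1 the counts were 2 members lower (17.5% of genes) and 6 higher (19.8%). Groups did not overlap, with shRNF213 lower, for 5 members in KKU-100 (NFKBIE, BIRC3, OTULIN, CSF1 and ICAM1) where 6.19% of genes had this pattern, for 4 in YSCCC (NFKBIE, TRAF2, OTULIN and CYLD) where 5.16% did, and for 1 in HuCCT1 (TRAF6) where 3.42% did. With shRNF213 higher, groups did not overlap for 0 members in KKU-100 (6.15% of genes), 1 in YSCCC (TAB2, 5.86%) and 2 in HuCCT1 (TRAF3 and NFKBIA, 5.10%), though for NFKBIA the nearest libraries were almost equal. Interferon-stimulated genes moved with these values in KKU-100, summing to 12820, 10030 and 10690 CPM with shRNF213, against 17370, 13010 and 12210 CPM with shControl. Their part in the KKU-100 values was not tested. Biliary epithelial markers summed to 1353, 873 and 1239 CPM with shRNF213 in KKU-100, against 1446, 1290.0 and 1134 CPM with shControl, with no shared direction. The 6 leukocyte markers, mostly CD68, were lower in 3 of 3 pairs, at 83.8, 50.8 and 67.6 CPM with shRNF213 in KKU-100, against 116, 56.1 and 78.7 CPM with shControl. The 4 endothelial markers were higher in 3 of 3, at 4.16, 4.31 and 6.29 CPM with shRNF213, against 2.05, 2.98 and 5.90 CPM with shControl. Fibroblast and hepatocyte markers had no shared direction there, and the part of these markers was not tested either.

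Averaged over the 3 lines with all 9 pairs in 1 fit, 2 members fell and 0 rose, where 1.34% of 19143 genes passed, 0.653% of them lower and 0.684% higher. They were the restraining factors TNFAIP3 (log2 -0.60, SE 0.10, adjusted p = 0.0113, edgeR) and OTULIN (-0.35, SE 0.07, adjusted p = 0.0277), each lower in 8 of 9 pairs. RELB, NFKBIE and IKBKG were also lower in 8 of 9 pairs and did not pass. The share of all genes lower in 8 of 9 pairs was not computed. Both were also among the YSCCC members above, so the mean is not separate evidence for that line. The TNFAIP3 value kept its call when any 1 of the 9 pairs was left out, with adjusted p of 0.00854 to 0.0390, while OTULIN kept it in 4 of 9 such fits, losing it without any 1 of the YSCCC pairs, without HuCCT1 replicate 2 and without KKU-100 replicate 1 (adjusted p up to 0.0934). Without pairing, the adjusted p was 0.735 for TNFAIP3 and 0.363 for OTULIN. TAB2 was just outside the threshold at 0.31 (SE 0.07, adjusted p = 0.0509), followed by TRAF3 at 0.27 (SE 0.07, adjusted p = 0.0788). DESeq2 called 7 members in this comparison, ICAM1, NFKBIE, TAB2, TRAF3 and TRAF6 besides TNFAIP3 and OTULIN. Its share of all genes is not given here, so this count cannot be set against the 1.34% of edgeR.

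The hairpin effects of YSCCC and KKU-100 differed for 3 of 38 members in the test of the difference itself, where 2.63% of 19143 genes passed, 0.993% higher and 1.64% lower in YSCCC than in KKU-100. CYLD differed by -1.10 on the log2 scale (SE 0.14, adjusted p = 0.00326, edgeR), made of a fall in YSCCC and a positive value in KKU-100 that did not pass alone, and kept its call when any 1 of the 9 pairs was left out. CSF1 differed by 1.01 (SE 0.19, adjusted p = 0.0128), made of a value near 0 in YSCCC and a negative one in KKU-100. Its call was lost without YSCCC replicate 3 (adjusted p = 0.0505). TNIP1 differed by -0.58 (SE 0.13, adjusted p = 0.0312) and kept its call in 3 of 9 such fits, without HuCCT1 replicate 2, KKU-100 replicate 1 or KKU-100 replicate 2, with adjusted p of 0.0317 to 0.120 over the 9. Without pairing none of the 3 passed, with adjusted p of 0.437 to 0.868. For TNFAIP3 the difference of these effects was -0.18 (SE 0.16, adjusted p = 0.598), and for OTULIN -0.14 (SE 0.14, adjusted p = 0.660).

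**Figure D3:**
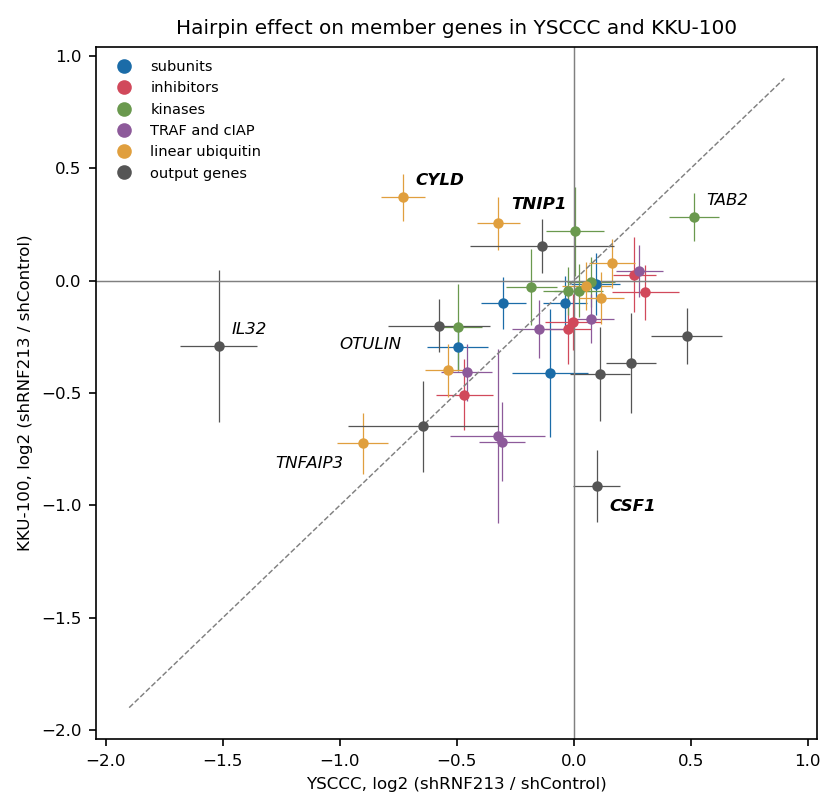
Fitted log2 ratio of shRNF213 to shControl for the 38 members in YSCCC (horizontal axis) and in KKU-100 (vertical axis), coloured by role, with bars of 1 standard error and the dashed line marking equal effects. The names in bold, CYLD, TNIP1 and CSF1, passed the test of the difference, and TNFAIP3 and OTULIN lie near the dashed line.

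In edgeR with all pairs, no member passed the test of a difference between the HuCCT1 effect and that of either other line. Against KKU-100, 0 of 38 passed (9 at an unadjusted p below 0.05), where 0.235% of genes did, and against YSCCC, 0 of 38 passed (11 at an unadjusted p below 0.05), where 0.047% did. DESeq2, and edgeR with no filter on low counts, each called 3 members against KKU-100 (BIRC3, CSF1 and CYLD) and 2 against YSCCC (IL32 and TNFAIP3). The shares of all genes just given do not apply to these settings. The widest of these differences were IL32 against YSCCC (1.60, adjusted p = 0.0778) and CSF1 against KKU-100 (0.89, adjusted p = 0.0678). Without KKU-100 replicate 2, BIRC3 and CSF1 passed against KKU-100, and IL32 passed against YSCCC without KKU-100 replicate 1 or replicate 2. For IL32 and TNFAIP3 a difference between YSCCC and HuCCT1 was thus called by some settings and not by others, with adjusted p of 0.000304 to 0.9999 for IL32 and 0.0120 to 0.9999 for TNFAIP3. For the other 8 members called in YSCCC, none of the settings run called a difference between YSCCC and HuCCT1.

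Without the RNF213 hairpin the lines held different levels of most members, as they did for most genes. In shControl libraries HuCCT1 was higher than YSCCC for 24 members and lower for 5, where 28.1% and 30.2% of 18010 genes were higher and lower. HuCCT1 was higher than KKU-100 for 13 members and lower for 12, where 30.1% and 27.3% of genes were. YSCCC was higher than KKU-100 for 9 members and lower for 20, where 32.9% and 27.9% of genes were. Of the 38 members, the highest mean in CPM was in HuCCT1 for 18, in YSCCC for 5 and in KKU-100 for 15, and the lowest was in YSCCC for 19.

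Of the subunits, 4 of 5 (NFKB1, NFKB2, RELA and RELB) were lower in YSCCC than in both other lines. RELB was the subunit with the widest range, with 74.5, 49.7 and 55.3 CPM in HuCCT1 shControl libraries, 12.6, 19.0 and 29.1 CPM in YSCCC and 137.5, 113 and 117.5 CPM in KKU-100. The 3 lines did not overlap, and the log2 difference was -2.62 for YSCCC against KKU-100 (SE 0.29, adjusted p = 3.75e-05, edgeR) and -1.05 for HuCCT1 against KKU-100 (SE 0.28, adjusted p = 0.00862). RELA, the main activating subunit, did not differ between HuCCT1 and KKU-100 beyond its error (log2 -0.002, SE 0.17). In the inhibitor group, BCL3 and NFKBIA were highest in KKU-100, and the log2 difference of NFKBIA from KKU-100 was -1.96 for HuCCT1 (SE 0.36, adjusted p = 0.000943) and -1.15 for YSCCC (SE 0.35, adjusted p = 0.0159).

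The linear ubiquitin group was unevenly spread over the lines, shown here per transcript length in the deposited TPM (a level scaled for gene length and library size). RBCK1 was the most abundant of the LUBAC genes in each line, with shControl medians of 459 TPM in HuCCT1, 237 TPM in YSCCC and 769.5 TPM in KKU-100. RNF31, the catalytic subunit, had medians of 33.5, 68.7 and 101 TPM and SHARPIN 103.9, 79.8 and 89.8 TPM in the same order. RNF31 was lower in HuCCT1 than in YSCCC (log2 -0.81, SE 0.20, adjusted p = 0.00501, edgeR) and KKU-100 (-1.51, SE 0.20, adjusted p = 0.000118), while SHARPIN differed from KKU-100 in neither line past the threshold. On the side of the opposing enzymes, CYLD had a median of 17.9 TPM in HuCCT1, 52.7 TPM in YSCCC and 39.6 TPM in KKU-100, and OTULIN 12.7, 17.8 and 11.8 TPM. TNFAIP3 had a median of 85.1 TPM in HuCCT1, 28.1 TPM in YSCCC and 171 TPM in KKU-100. YSCCC was the lowest (log2 -2.59 against KKU-100, SE 0.44, adjusted p = 0.000546), while HuCCT1 and KKU-100 did not differ past the threshold (-0.50, SE 0.41, adjusted p = 0.320).

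**Figure D4:**
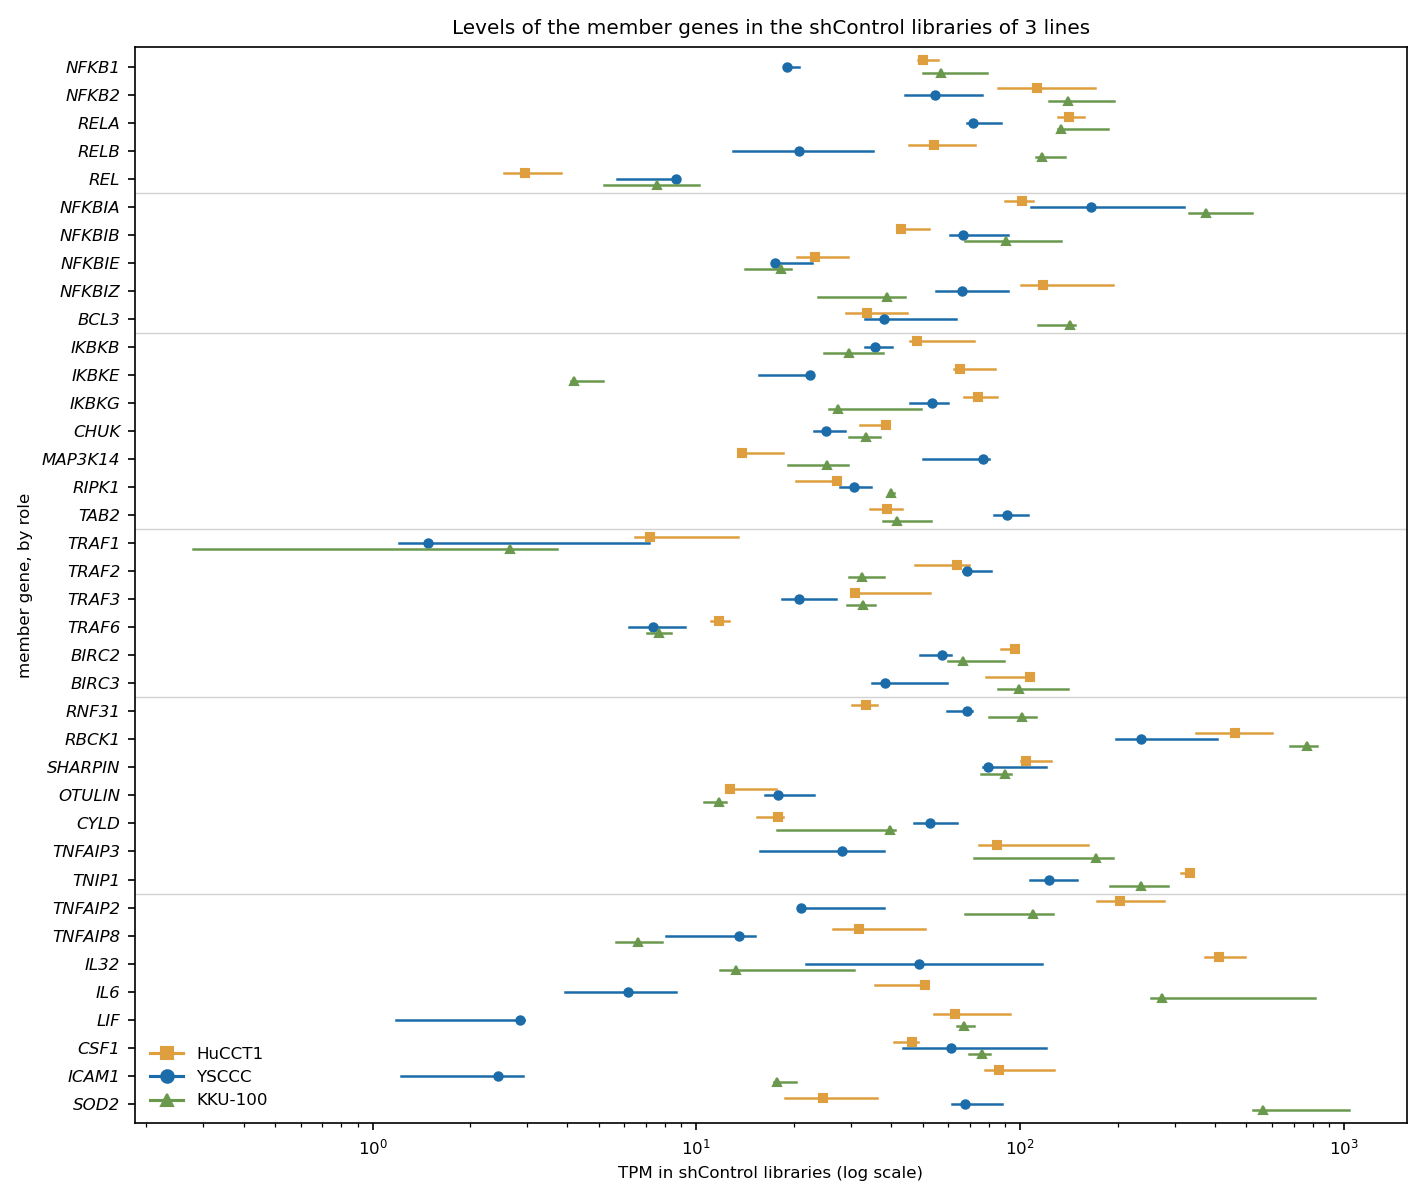
Level in the deposited TPM (horizontal axis, log scale) of the 38 members in the shControl libraries of HuCCT1, YSCCC and KKU-100, with rows grouped by role. Symbols are medians of 3 libraries and bars run from the lowest to the highest. ICAM1, LIF and IL6 lie to the left in YSCCC, and SOD2 lies to the right in KKU-100.

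The 6 members with the widest differences between lines were 5 output genes and the kinase IKBKE. IL6 had 19.9, 20.6 and 13.2 CPM in HuCCT1 shControl libraries, 1.56, 2.55 and 1.22 CPM in YSCCC and 297.5, 95.9 and 92.8 CPM in KKU-100, where replicate 1 was the highest. The 3 lines did not overlap, and the log2 difference of YSCCC from KKU-100 was -6.53 (SE 0.56, adjusted p = 6.64e-06, edgeR). ICAM1 had 107.5, 73.4 and 75.9 CPM in HuCCT1, 2.46, 0.952 and 1.94 CPM in YSCCC and 15.1, 17.3 and 14.0 CPM in KKU-100, so the line with the most IL6 was not the one with the most ICAM1. LIF, a cytokine of the IL6 family, had 161.5, 114 and 92.0 CPM in HuCCT1, 4.22, 4.38 and 1.58 CPM in YSCCC and 107, 114 and 119 CPM in KKU-100, with no difference between HuCCT1 and KKU-100 past the threshold (log2 0.10, SE 0.31, adjusted p = 0.805). SOD2 had 72.9, 59.9 and 84.6 CPM in HuCCT1, 88.3, 98.1 and 115 CPM in YSCCC and 1013, 1314 and 2265 CPM in KKU-100, where replicate 3 was the highest. HuCCT1 and YSCCC did not differ past the threshold in SOD2 (log2 -0.46, SE 0.28, adjusted p = 0.185). SOD2 overlaps WTAP on the opposite strand, whose counts were 24.4% of those of SOD2.

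IL32 was higher in HuCCT1 than in YSCCC (log2 2.84, SE 0.50, adjusted p = 0.000771, edgeR) and than in KKU-100 (4.34, SE 0.54, adjusted p = 8.14e-05). YSCCC was above KKU-100 by 1.50 (SE 0.50, adjusted p = 0.0231), a call that was lost without YSCCC shControl replicate 3 (0.79, adjusted p = 0.0976), without KKU-100 replicate 1 (1.35, adjusted p = 0.0764) and without KKU-100 replicate 3 (1.25, adjusted p = 0.0845), and in the fit blocked by replicate number (adjusted p = 0.0581). IKBKE, a kinase related to IKBKB that also acts in interferon signalling, had 68.9, 87.7 and 81.2 CPM in HuCCT1, 21.5, 21.6 and 16.8 CPM in YSCCC and 4.72, 5.78 and 5.09 CPM in KKU-100. The 3 lines did not overlap, and each step was past the threshold, by 2.00 between HuCCT1 and YSCCC (SE 0.18, adjusted p = 9.84e-06) and by 1.92 between YSCCC and KKU-100 (SE 0.18, adjusted p = 1.16e-05).

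Besides the members, 54 other genes of the pathway (receptors, adaptors, further kinases and ubiquitin enzymes) were examined. Of the 52 tested in YSCCC, 0 rose and 6 fell with shRNF213 (11.5%), where 3.69% of all genes tested rose and 4.56% fell. Of 52 in HuCCT1 and 50 in KKU-100, 0 passed, where 0.140% and 0.443% of all genes did. The lowest adjusted p in these lines was 0.151 and 0.0624 (edgeR). The 6 falls included FBXW11, a subunit of the ligase complex that recognises phosphorylated inhibitor (log2 -0.95, SE 0.09, adjusted p = 0.000111, edgeR), the receptors TLR2 (-0.80, SE 0.22, adjusted p = 0.0386) and TNFRSF1B (-0.65, SE 0.14, adjusted p = 0.0111) and the kinase IRAK2 (-0.56, SE 0.16, adjusted p = 0.0459). FBXW11 kept its call in YSCCC without any 1 pair (adjusted p up to 0.00556), while TLR2, TNFRSF1B and IRAK2 each lost theirs without replicate 1 and without replicate 2, with adjusted p up to 0.175, 0.0765 and 0.289. FBXW11 had 78.1, 64.7 and 86.4 CPM with shRNF213 in YSCCC, against 149, 126 and 166 CPM with shControl, and 119, 109.8 and 85.0 CPM with shRNF213 in KKU-100, against 189.8, 156 and 140.2 CPM with shControl. In HuCCT1 it had 74.8, 73.3 and 101 CPM with shRNF213, against 97.4, 125 and 124 CPM with shControl. It was thus lower in 9 of 9 pairs, a pattern that 1.36% of 14988 genes shared, although the groups overlapped in HuCCT1. Of the 54 genes, FBXW11 was the 1 that passed in the mean over the lines, where 1.34% of 19143 genes did. Its mean effect was -0.70 (SE 0.08, adjusted p = 0.00127, edgeR) and passed under each alternative run, unpaired included (adjusted p up to 0.0138).

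Of 40 further genes known to respond to NF-kappaB, those called differed from line to line. Some were scarcely expressed in the lines without a call. IL33 had 0 CPM in every HuCCT1 library and at most 0.152 CPM in YSCCC. CXCL5 had 0 CPM in every KKU-100 library and 1.10 to 2.55 CPM in YSCCC. The absence of a call for them in those lines is thus not a measured lack of response. In YSCCC, where 3.69% of all genes tested rose and 4.56% fell, 1 of 29 tested from this list rose. It was LCN2, an iron-binding protein of epithelial inflammation (log2 0.44, SE 0.09, adjusted p = 0.00990, edgeR). Another 4 fell there: LTB at -2.10 (SE 0.39, adjusted p = 0.00609), a lymphotoxin subunit present at 0.343 to 2.30 CPM in YSCCC shControl libraries, the protease PLAU at -0.59 (SE 0.11, adjusted p = 0.00595), the survival factor BCL2L1 at -0.47 and RNF19B at -0.34. In KKU-100, where 0.443% of all genes passed in either direction, 2 of 31 tested rose and 1 fell. The alarmin IL33 had 26.9, 68.6 and 35.2 CPM with shRNF213, against 2.93, 11.3 and 5.23 CPM with shControl (2.81, SE 0.16, adjusted p = 0.00153), IL1A rose by 0.99 (SE 0.15, adjusted p = 0.0462), and the chemokine CCL5 fell, at -1.91 (SE 0.26, adjusted p = 0.0323), with 60.7, 40.2 and 37.3 CPM with shRNF213, against 399.5, 96.7 and 122 CPM with shControl. In HuCCT1, where 0.140% of all genes passed in either direction, 1 of 36 tested rose and 0 fell. It was CXCL5, a neutrophil chemokine, with 413, 228 and 331.5 CPM with shRNF213, against 169, 102 and 216.5 CPM with shControl (1.02, SE 0.13, adjusted p = 0.0272), and the groups did not overlap. PLAU and BCL2L1 had positive values in KKU-100, higher in 3 of 3 pairs. PLAU had 57.6, 60.2 and 44.3 CPM with shRNF213 in KKU-100, against 7.44, 30.3 and 12.7 CPM with shControl, with no overlap (1.86, SE 0.30, adjusted p = 0.0550), and its effects in YSCCC and KKU-100 differed by -2.43 (SE 0.34, adjusted p = 0.00431). BCL2L1 had 240.6, 249 and 211 CPM with shRNF213 in KKU-100, against 143, 229.7 and 138 CPM with shControl (0.48, SE 0.14, adjusted p = 0.172), and its effects differed by -0.94 (SE 0.19, adjusted p = 0.0207). PLAU and BCL2L1 were the 2 of 39 tested whose effect was called lower in YSCCC than in KKU-100. Another 2 were called higher, where 1.64% of 19143 genes were lower and 0.993% higher. CXCL5, IL33 and PLAU kept their within-line calls without any 1 pair. LCN2 and BCL2L1 lost theirs without replicate 1 and without replicate 2 (adjusted p up to 0.131 and 0.271), RNF19B without any 1 of the 3 (up to 0.173), IL1A without replicate 1 and without replicate 3 (up to 0.222) and CCL5 without replicate 3 (0.152). LTB kept its call without replicate 1 and without replicate 2 and did not pass the filter on low counts without replicate 3. Without pairing, none of the within-line calls of these other genes passed, with adjusted p of at least 0.362.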

How the data were processed

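Messenger RNA was sequenced with a TruSeq mRNA kit, per the labels' protocols. The submitters' processing notes name DESeq2 1.34.0, FastQC 0.11.9, HTSeq 0.6.1p1, Picard 1.139, STAR 2.5.1b, StringTie 2.1.6 and build GRCh38. No source used here says which step made which column or with what strand setting. The deposited values used here are, per the file headers, raw counts per gene and TPM. Tests used the counts, and TPM served only to describe levels of genes and of lines.

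Each test was the two-sided quasi-likelihood test of edgeR 4.0.16 in R 4.3.3 with TMM factors, over all genes that filterByExpr kept at a minimum count of 10 and a minimum total of 15, Benjamini-Hochberg adjusted over all genes tested, with 0.05 as threshold. SE is the log2 difference divided by the root of F. CPM use TMM factors over all 18 libraries. The fits were checked on simulated counts. Hairpin comparisons had the replicate number as a block (the mean and the differences, 9 blocks), and shControl comparisons had none. Pairing was set with the choice of the members and checked on the data: over 10059 to 10703 genes per line, deviations of same-numbered libraries from their group means correlated at 0.707 to 0.787 in HuCCT1, 0.724 to 0.902 in YSCCC and 0.407 to 0.729 in KKU-100, above the minimum of 0.1. Other pairs of libraries also passed it in YSCCC (0.655 and 0.515) and KKU-100 (0.120), none above the value of its own number.

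The members, gene lists and named-gene rule were chosen with earlier results of these data known. Values in every library are given for members called in a hairpin comparison and for the 6 widest shControl differences. From the lists of other genes, up to 4 called genes per direction and line are named. TRAF3, BIRC3, ICAM1, TRAF6, NFKBIA and RBCK1, and the shControl levels of RELB, were described after their values were seen. Alternatives were no block (or, for shControl, a block), DESeq2 1.42.0, RLE factors, no filter on low counts and leaving out each pair or shControl library. Promoter windows are from RefSeq on GRCh38.p14.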

Additional observations from a re-analysis of the deposited data

Results flagged for a closer look

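The hairpin effects in YSCCC and KKU-100 differed for 3 members by the test of the difference itself (edgeR, joint fit of 18 libraries). CYLD, the deubiquitinase, differed by -1.1047 on the log2 scale (adjusted p = 0.00326), lower in 3 of 3 pairs in YSCCC and higher in 3 of 3 in KKU-100. TNIP1, the partner of TNFAIP3, differed by -0.5796 (adjusted p = 0.0312), with the same directions within pairs. CSF1, the macrophage growth factor, differed by 1.0079 (adjusted p = 0.0128), lower in 1 of 3 pairs in YSCCC and in 3 of 3 in KKU-100. The lines also differ in growth medium, and whether line or medium goes with these differences cannot be told apart.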

How the results depend on the processing

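Every count here is of members with an adjusted p below 0.05. Pairing by replicate number decided the hairpin calls: without the replicate block, 0 members passed in YSCCC (10 with it), 0 in the mean over lines (2 with it) and 0 in the difference of YSCCC and KKU-100 (3 with it). Genes of any kind called without it numbered 0 in HuCCT1, 0 in YSCCC, 2 in KKU-100 and 18 in the mean. With the block in place, DESeq2 called 1 member in HuCCT1, 10 in YSCCC, 3 in KKU-100, 7 in the mean, 3 in HuCCT1 minus KKU-100, 5 in YSCCC minus KKU-100 and 2 in HuCCT1 minus YSCCC. With no filter on low counts there were 1, 12, 2, 5, 3, 5 and 2 in the same order, while RLE factors left each count within 1.5 times. Leaving out 1 pair gave 0 to 1 in HuCCT1, 3 to 9 in YSCCC, 0 to 3 in KKU-100, 1 to 3 in the mean, 0 to 2 in HuCCT1 minus KKU-100, 1 to 4 in YSCCC minus KKU-100 and 0 to 1 in HuCCT1 minus YSCCC. The share of all genes called under these settings is not given here. Their member counts therefore cannot be set against the shares of the main fits. The cause of these changes was not tested. Counts for shControl levels stayed within 1.5 times under each alternative, with 28, 21 and 27 under a replicate block, against 29, 25 and 29 without it. Signs turned only for values without a call and only when 1 pair or library was left out, with these log2 ranges. In HuCCT1, RELB ran from -0.209 to 0.129, NFKBIE from -0.171 to 0.0864 and CSF1 from -0.075 to 0.0558. In YSCCC, CSF1 ran from -0.0117 to 0.189. In KKU-100, MAP3K14 ran from -0.370 to 0.0995 and IL32 from -0.670 to 0.236. For the mean, TNIP1 ran from -0.0428 to 0.0689. For HuCCT1 minus KKU-100, MAP3K14 ran from -0.0583 to 0.401 and IL32 from -0.1649 to 0.814. For YSCCC minus KKU-100, TRAF2 ran from -0.127 to 0.0679 and NFKBIE from -0.0406 to 0.164. For HuCCT1 minus YSCCC, CSF1 ran from -0.209 to 0.0031, and for shControl, LIF in HuCCT1 against KKU-100 from -0.1465 to 0.271. Depth limits the low members most: ICAM1 and IL6 in YSCCC and IL32 in KKU-100 rest on few CPM, and a difference there may not be detectable.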
